A study of Mus musculus with 48 samples.

Results

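The genes described here are 9 regulators of the actin cytoskeleton: the small GTPases Cdc42, Rac1, Rac2, Rhoa and Rhoh, the adaptor proteins Nck1 and Nck2, the kinase Pak2 and the actin nucleation-promoting factor Was. They were chosen by symbol, 9 of the 53345 genes in the matrices of expected counts and FPKM, and all 9 passed the filter on low counts in every fit. Cdc42, Pak2, Nck1 and Nck2 were also named by the study from a grouping of genes made on these same libraries, so their direction is not independent evidence. Female C57BL/6 mice, an inbred strain, 8 to 12 weeks of age, were given PBS, WT IL-2, H16R or 3x under the skin, once, at 25 µg for the IL-2 molecules. H16R and 3x are muteins, IL-2 variants with weakened signalling, and like the WT IL-2 used here they are human IL-2 joined to an antibody Fc. All mice had an antibody as well, 500 µg at each of 2 times: an isotype control or an antibody against MHC class II (MHC II block), through which other cells show antigen to CD4 T cells. No group was free of antibody. RNA was taken on day 4 from splenic Tregs, the fraction that bound in a CD25 selection, in 8 groups of 4 libraries, and from Tcons, the CD4 T cells that did not bind, in the same 8 groups with 2 libraries each. Each library came from 1 mouse, and the 16 Tcon libraries came from mice that also gave a Treg library.

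Small GTPases are molecular switches: exchange factors (GEFs) load them with GTP, activating proteins (GAPs) return them to the GDP form, and GDIs hold them in the cytosol. In T cells Cdc42 and the Rac proteins drive actin polymerization at the contact with an antigen-presenting cell, Cdc42 through Was, the Wiskott-Aldrich syndrome protein that switches on the Arp2/3 complex, and both through Pak kinases. Nck1 and Nck2 link phosphorylated receptors and the scaffold Slp-76 to Was and Pak, while Rhoh lacks effective GTPase activity and serves in T cell receptor signalling with Zap70 and Lck.

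In GENCODE vM21 (GRCm38) all 9 are protein-coding genes: Cdc42 on chromosome 4, 137319696 to 137357720, Rac1 on chromosome 5, 143503634 to 143528036, and Rhoh on chromosome 5, 65861213 to 65896700. Rac2 on chromosome 15, 78559167 to 78572783, and Rhoa on chromosome 9, 108306129 to 108337934, are the other GTPases. Nck1 on chromosome 9, 100492293 to 100546134, lies on the same chromosome as Rhoa, Nck2 on chromosome 1, 43444579 to 43570515, and Pak2 on chromosome 16, 32016290 to 32079342, on autosomes as well. Was on chromosome X, 8081453 to 8090498, is the X-linked member. Counts are per gene, with all transcripts together. Cdc42 and Rhoh moved differently once MHC class II was blocked, and for that reason the 250 bases before a RefSeq transcription start of each are printed (GRCm38.p6), 5′ to 3′ on the gene's own strand, with each GC box (CCGCCC, either strand) in capitals. The window of Cdc42 is chr4:137357760-137358009, minus strand, just before the gene, and that of Rhoh is chr5:65863334-65863583, plus strand, which lies within the GENCODE span of Rhoh because its RefSeq start is further in.
Cdc42: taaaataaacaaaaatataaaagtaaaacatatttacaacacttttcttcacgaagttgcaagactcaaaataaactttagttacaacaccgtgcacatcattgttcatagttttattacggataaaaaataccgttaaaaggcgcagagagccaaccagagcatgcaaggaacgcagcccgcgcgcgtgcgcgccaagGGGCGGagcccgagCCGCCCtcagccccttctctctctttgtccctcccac
Rhoh: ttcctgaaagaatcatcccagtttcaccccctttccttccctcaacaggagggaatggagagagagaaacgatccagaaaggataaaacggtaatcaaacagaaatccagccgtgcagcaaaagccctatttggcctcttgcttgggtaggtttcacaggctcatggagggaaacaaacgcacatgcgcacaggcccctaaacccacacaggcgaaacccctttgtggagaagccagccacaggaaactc

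The Cdc42 window holds 2 GC boxes and the Rhoh window 0. Of the 8 windows, 4 hold at least 1, those of Cdc42, Nck1, Nck2 and Rhoa, against 32.7% of all 32851 promoter windows of this length. A second motif, TTCNNNGAA, the core bound by STAT proteins, which transmit the IL-2 signal, was found in none of the 8 windows of the 6 genes that have an entry (Cdc42, Nck1, Nck2, Rhoa, Rhoh and Was), while 7.02% of all windows hold it. The 2 motifs do not overlap. Both motifs were looked for after the expression values were known, and a missing match says only that these letters are not in this window.

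Total expected counts ranged from 18.28 to 51.24 M over the Treg libraries and from 31.31 to 51.95 M over the Tcon libraries. Isotype PBS Tregs had the lowest median, 22.36 M, with a range of 18.28 to 34.58 M. With isotype, WT IL-2 was at 41.0 to 46.15 M, H16R at 32.91 to 48.68 M and 3x at 38.19 to 49.91 M. Foxp3, the transcription factor that defines Tregs, was at 687 to 1249 CPM (CPM is counts scaled to library size by TMM) in Tregs and 46.8 to 183 CPM in Tcons, and Il2ra, which encodes CD25, at 306 to 935 against 17.8 to 72.7 CPM, and every Treg library was above every Tcon library for both. Markers of B cells (5 genes, Cd79a, Cd79b, Ms4a1, Pax5 and Siglecg, none of them at 0 in any library) summed to 460.5 CPM in replicate 1 of isotype PBS and 460.4 CPM in replicate 1 of MHC II block with WT IL-2, against 23.0 to 114.6 CPM in the other 30 Treg libraries. The second of these also held 489 CPM of the 6 myeloid markers, against 13.9 to 90.2 CPM elsewhere. Member calls that changed when both libraries were left out are given beside their results. In bulk RNA, fewer cells of a type and less RNA per cell cannot be told apart. In the labels 2 isotype libraries of WT IL-2 carry the same mouse number and are replicates 3a and 3b here. Whether they came from 1 mouse cannot be told from the labels. They were kept as 2 samples, since their counts differed by more than sampling noise, as those of every pair of libraries in a group did, and if they came from 1 mouse that group holds 3 mice. No member call changed without 3a. Without 3b, Rac1 (log2 difference -0.15, edgeR adjusted p = 0.0566) and Rhoa (-0.14, 0.0373) were also lower with MHC II block than with isotype under WT IL-2, the WT IL-2 effect on Rac2 was smaller with block (-0.19, 0.0957), and the calls that changed for Rhoa against PBS, for Cdc42 between H16R and WT IL-2 and for Nck2 between the arms are given with those genes.

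Per length, Rac2, the Rac protein of blood cells, was the most abundant member, and the 2 Nck adaptors were the least abundant. In isotype PBS Tregs, FPKM was 356 ± 17.4 for Rac2 (mean ± SD, n = 4, as for the others), 193 ± 10.3 for Cdc42, 179.8 ± 7.55 for Rhoa and 135 ± 6.99 for Rhoh. Below these came Rac1 at 88.7 ± 3.54 FPKM, Was at 76.3 ± 3.27, Pak2 at 59.4 ± 5.79, Nck2 at 14.8 ± 0.293 and Nck1 at 10.9 ± 0.905. The FPKM ranges of Cdc42 and Rhoa overlapped, and those of every other pair of neighbours in this order were separate. Over all 32 Treg libraries FPKM ran from 336 to 508 for Rac2, from 178 to 332 for Cdc42, from 124 to 184 for Rhoh, from 14.4 to 31.3 for Nck2 and from 9.91 to 16.6 for Nck1. The group means of 1 member in Tregs, in CPM, differed by 1.22-fold for Was, the steadiest, and by 2.04-fold for Nck2, with 1.81-fold for Cdc42 and 1.66-fold for Rac1 between them.

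**Figure D1:**
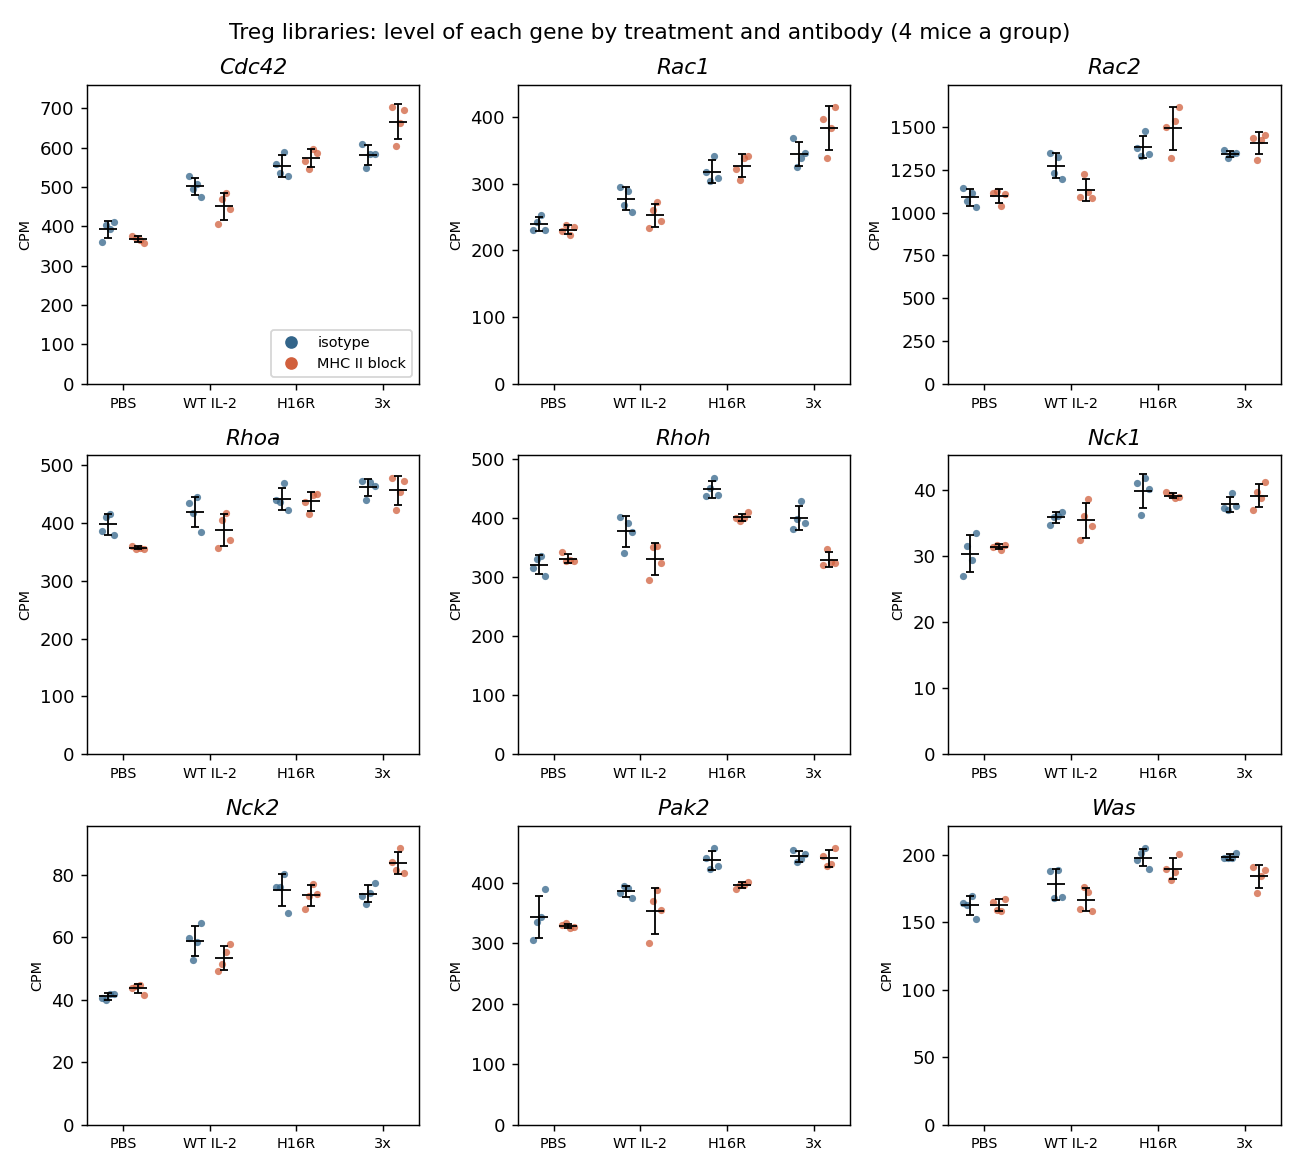
TMM-scaled CPM of each of the 9 genes (y axis, linear from 0) in Tregs by treatment (x axis), with each library as a point, isotype in blue and MHC II block in orange, and black bars for mean ± SD of 4 libraries. Nck2 rises from about the same level in both PBS groups to its highest values with the muteins, and Rhoh with 3x and MHC II block, 321 to 348 CPM, stays near the 302 to 342 CPM of the PBS libraries.

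With isotype antibody, IL-2 raised all or nearly all of the 9 genes above PBS. Nck2 rose most, by 43.0% (WT IL-2), 82.9% (H16R) and 81.0% (3x), Cdc42 followed with 27.8%, 41.2% and 49.2%, and Rhoa moved least. WT IL-2 raised 8 of the 9 genes, where 52.2% of the 12392 genes tested were called in either direction, and Was was lost with only the groups compared (0.14, edgeR adjusted p = 0.105). H16R raised 9 of 9, where 64.2% of all genes were called, and 3x raised 9 of 9, where 63.6% of all genes were called (edgeR quasi-likelihood test, Benjamini-Hochberg adjusted p under 0.1, which is the meaning of called, rose and fell throughout). The median log2 fold change of the members was 0.22, 0.40 and 0.33, and that of all tested genes was -0.01 in each of the 3 comparisons. All 3 share the 4 PBS libraries, so they are not independent of each other.

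Among the GTPases, Cdc42 was at 361, 404, 394 and 411 CPM in the isotype PBS libraries and at 528, 495, 509 and 476 CPM with WT IL-2. It was at 559, 535, 589 and 528 CPM with H16R and at 610.4, 547, 584 and 585 CPM with 3x, so that every IL-2 library lay above every PBS library. The log2 fold changes were 0.35 ± 0.049 (SE, edgeR adjusted p = 1.57e-06) for WT IL-2, 0.50 ± 0.049 (SE, edgeR adjusted p = 1.95e-09) for H16R and 0.58 ± 0.049 (SE, edgeR adjusted p = 1.6e-10) for 3x. Rac1, the widely expressed Rac protein, went from 231, 243, 252 and 230.2 CPM with PBS to 368, 325, 338 and 346 CPM with 3x, without overlap, a log2 fold change of 0.54 ± 0.055 (SE, edgeR adjusted p = 4.33e-09). Rac2 went from 1144, 1070, 1116 and 1030 CPM to 1377, 1331, 1474 and 1345 CPM with H16R, without overlap, a log2 fold change of 0.34 ± 0.052 (SE, edgeR adjusted p = 2.36e-06). Rhoa, which drives contractility through Rock kinases, was at 387, 409.8, 415 and 379 CPM with PBS and at 433, 416, 444 and 385 CPM with WT IL-2. These 2 groups overlapped, and the change of 0.08 ± 0.047 (SE, edgeR adjusted p = 0.199) did not pass the threshold unless replicate 3b of the WT IL-2 group was left out (adjusted p = 0.0564 by edgeR). With 3x, Rhoa rose by 16.9%. With H16R it rose by 11.1%, a call that was lost when libraries were scaled by total counts alone, without TMM (log2 fold change 0.09, edgeR adjusted p = 0.117), and with limma on FPKM.

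Rhoh, which acts with Zap70 and Lck, was at 316, 331, 336 and 302 CPM with PBS, 401, 341, 392 and 376 CPM with WT IL-2, 437, 452, 469 and 439 CPM with H16R and 381, 399, 429.7 and 392 CPM with 3x. H16R gave the highest values, and all H16R libraries lay above all 3x libraries. The log2 fold changes against PBS were 0.23 ± 0.05 (SE, edgeR adjusted p = 0.000489), 0.49 ± 0.051 (SE, edgeR adjusted p = 4.53e-09) and 0.33 ± 0.05 (SE, edgeR adjusted p = 3.46e-06). Of the adaptors, Nck2 was at 40.7, 39.9, 42.0 and 42.0 CPM with PBS, at 59.8, 52.8, 58.4 and 64.7 CPM with WT IL-2, at 76.0, 76.3, 80.2 and 67.9 CPM with H16R and at 73.3, 70.8, 74.3 and 77.4 CPM with 3x. The WT IL-2 libraries sat between PBS and the muteins with no overlap on either side, and the log2 fold changes were 0.52 ± 0.056 (SE, edgeR adjusted p = 2.6e-08), 0.87 ± 0.056 (SE, edgeR adjusted p = 4.78e-13) and 0.86 ± 0.056 (SE, edgeR adjusted p = 1.03e-12). Nck1 went from 26.9, 31.4, 29.4 and 33.5 CPM with PBS to 41.0, 36.1, 41.8 and 40.1 CPM with H16R, a log2 fold change of 0.40 ± 0.051 (SE, edgeR adjusted p = 1.43e-07). Of the effectors, Pak2, a kinase that Cdc42 and Rac bind and activate, was at 305, 335, 344 and 389 CPM with PBS and 454, 433, 439 and 447 CPM with 3x, a log2 fold change of 0.38 ± 0.051 (SE, edgeR adjusted p = 3.99e-07). Was went from 165, 163, 169 and 153 CPM to 197, 197, 197 and 202 CPM with 3x, a log2 fold change of 0.30 ± 0.044 (SE, edgeR adjusted p = 1.55e-06). The groups of both genes were separate with 3x, while 1 PBS library, replicate 4, put Pak2 within the range of the WT IL-2 group.

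The members' levels moved alongside markers of other cells. In isotype PBS the 5 B cell markers summed to 89.4 to 460.5 CPM, against 40.0 to 72.3 CPM with WT IL-2, 25.3 to 32.1 with H16R and 23.0 to 29.0 with 3x, and the median of 5 of 5 of them was lower with each molecule. The 3 NK markers were lower in 3 of 3 as well. Klra8, an NK marker, was at 0 in some Treg libraries. The part of these cells in the members' values was not tested. With replicate 1 of isotype PBS and replicate 1 of MHC II block with WT IL-2 left out, WT IL-2 still raised 8, H16R 9 and 3x 9 of the 9 genes in the isotype arm.

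When MHC class II was blocked, the muteins raised nearly all of the 9 genes, and WT IL-2 raised fewer than with isotype. Over all genes the share called with WT IL-2 was smaller too, 35.6% against 52.2%. Of the members, Rhoa was called here and not with isotype. Such counts do not test a difference between the arms, which was tested as an interaction (below). WT IL-2 raised 6 of 9 against PBS in the same arm, where 35.6% of all genes were called, H16R raised 9 of 9 (66.5% of all genes called) and 3x raised 8 of 9 (73% called). These 3 comparisons share the 4 PBS libraries of the MHC II block arm. The median log2 fold changes of the members were 0.14, 0.31 and 0.35, against medians of 0.02, -0.02 and -0.04 over all genes. Cdc42 was at 376, 371, 366 and 358 CPM with PBS and MHC II block, at 405, 468, 485 and 444 CPM with WT IL-2, at 566, 546, 597 and 585 CPM with H16R and at 703, 604, 662 and 694 CPM with 3x. The groups stood in this order, with every 3x library above every H16R library, and the log2 fold changes against PBS were 0.31 ± 0.049 (SE, edgeR adjusted p = 3.26e-05), 0.64 ± 0.049 (SE, edgeR adjusted p = 1.62e-11) and 0.85 ± 0.05 (SE, edgeR adjusted p = 2.61e-14). Rac1 rose by 64.7% with 3x, from 229, 237, 223 and 235 CPM to 397, 339, 383 and 415 CPM. Nck2 rose from 43.7, 44.5, 44.8 and 41.7 CPM with PBS to 84.2, 81.6, 88.6 and 80.6 CPM with 3x, a log2 fold change of 0.93 ± 0.055 (SE, edgeR adjusted p = 3.27e-14), or 90.3%.

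Rhoh was the member that 3x did not raise in this arm: it was at 342, 328, 329 and 327 CPM with PBS and at 321, 348, 326 and 324 CPM with 3x, overlapping groups with a log2 fold change of -0.02 ± 0.05 (SE, edgeR adjusted p = 0.773) and a 95% interval of -0.12 to 0.09. With H16R it was at 399.9, 395, 401 and 409.8 CPM, above all PBS libraries, a rise of 20.8%. With WT IL-2 and MHC II block, Rhoh, Rac2 and Was did not pass the threshold, with log2 fold changes of 0.01, 0.06 and 0.06. The other 6 calls with WT IL-2 in this arm had log2 fold changes of 0.12 to 0.31, and 3 of them were lost in at least 1 fit with 1 library left out. Pak2 (0.12 ± 0.051 SE, edgeR adjusted p = 0.0801) was lost in 11 of 32 fits with 1 library left out (adjusted p up to 0.291), Rac1 (0.15 ± 0.055 SE, edgeR adjusted p = 0.046) without replicate 3 of MHC II block PBS (0.12) or of MHC II block WT IL-2 (0.156), and Rhoa (0.14 ± 0.047 SE, edgeR adjusted p = 0.0305) without the latter (0.119). All 3 were also lost with total counts in place of TMM, with limma on FPKM and with no filter on counts or biotype. In MHC II block with WT IL-2 the 6 myeloid markers summed to 24.3 to 489 CPM, against 14.2 to 22.3 CPM with PBS. With H16R they summed to 33.2 to 58.2 CPM and with 3x to 46.0 to 63.1 CPM, both without overlap with PBS. The 2 CD8 T cell markers summed to 7.29 to 8.97 CPM with PBS, 10.5 to 45.1 CPM with WT IL-2, 10.3 to 15.6 CPM with H16R and 13.6 to 36.7 CPM with 3x. The NK sums were 15.8 to 22.9 CPM with PBS and 26.2 to 41.6 CPM with WT IL-2, without overlap, and those with H16R and 3x overlapped PBS. The part of those cells was not tested.

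**Figure D2:**
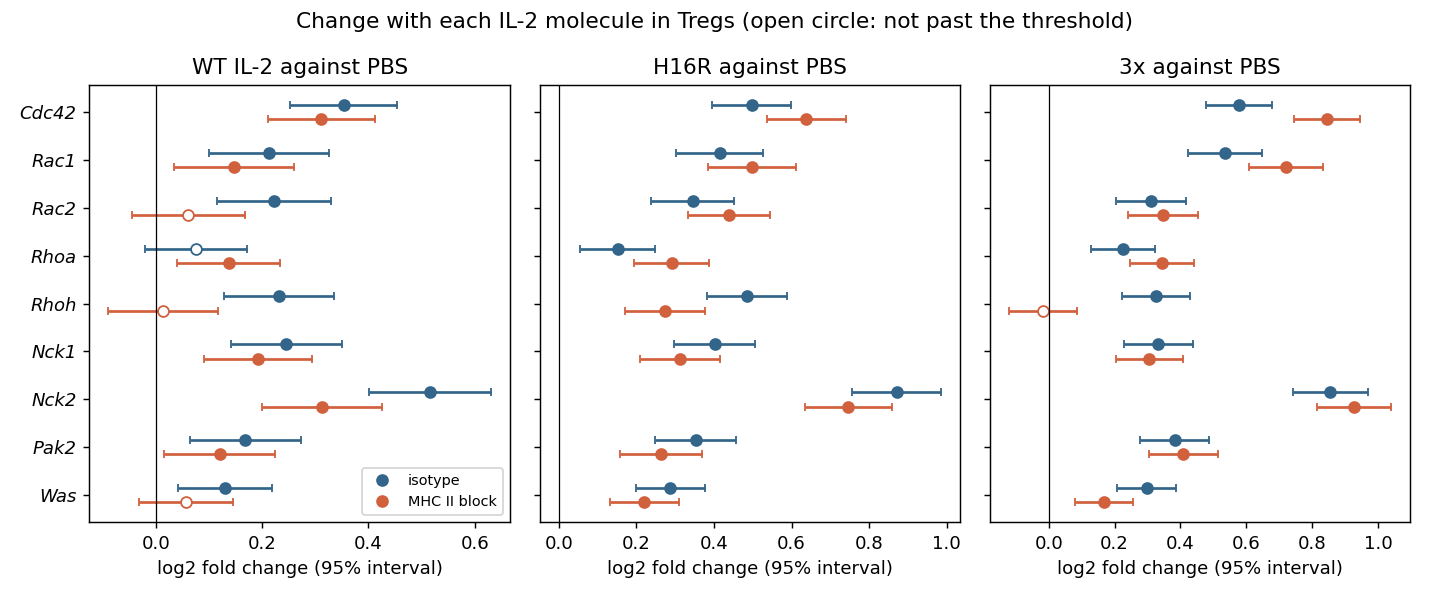
Log2 fold change against PBS in the same antibody arm (x axis, with 95% interval) of each gene (y axis) for WT IL-2, H16R and 3x, isotype in blue and MHC II block in orange; open circles did not pass the threshold. Rhoh with 3x is at 0.33 with isotype and at -0.02 with MHC II block, while Cdc42 with 3x is at 0.58 and 0.85.

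The effect of MHC II block within one treatment was uneven over the 9 genes, and Rhoh was the gene that fell with every IL-2 molecule. With PBS, 1 of 9 fell and 0 rose, where 14.1% of all genes were called. With WT IL-2, 3 fell (33.6% of all genes called), with H16R 2 fell (30.7% called), and with 3x 3 rose and 2 fell (54.1% called). In each treatment the share of members called was near or below the share over all genes. Rhoh fell by 11.4% with WT IL-2, by 11.1% with H16R and by 18.9% with 3x, log2 differences of -0.17 ± 0.05 (SE, edgeR adjusted p = 0.0106), -0.17 ± 0.05 (SE, edgeR adjusted p = 0.0168) and -0.30 ± 0.05 (SE, edgeR adjusted p = 2.45e-05). With H16R and with 3x every MHC II block library lay below every isotype library, and with WT IL-2 the groups overlapped. These 3 falls were called in every fit with 1 library left out. With PBS the log2 difference of Rhoh was 0.04, with a 95% interval of -0.06 to 0.15.

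With 3x, Cdc42, Rac1 and Nck2 were higher when MHC class II was blocked, by 12.7%, 9.51% and 11.4%. The log2 differences were 0.17 ± 0.049 (SE, edgeR adjusted p = 0.00531) for Cdc42, 0.16 ± 0.054 (SE, edgeR adjusted p = 0.0184) for Nck2 and 0.13 ± 0.055 (SE, edgeR adjusted p = 0.0498) for Rac1. The Nck2 groups were separate, 70.8 to 77.4 CPM with isotype and 80.6 to 88.6 CPM with block, and those of Cdc42 and Rac1 overlapped. The Rac1 call was lost in 4 of 32 fits with 1 library left out: without isotype 3x replicate 2 (adjusted p = 0.157 by edgeR) or 3 (0.103), or MHC II block 3x replicate 1 (0.148) or 4 (0.239). It was also lost with no filter on counts or biotype (0.124). Was was lower with 3x, -0.13 ± 0.043 (SE, edgeR adjusted p = 0.0137), with the groups separate at 172 to 191 and 197 to 202 CPM, a call that the same setting ended (-0.11, 0.21). With WT IL-2, Cdc42 and Rac2 were lower with MHC II block, by 9.11% and 10.1%. The Cdc42 call was lost without isotype WT IL-2 replicate 1 (log2 difference -0.11, edgeR adjusted p = 0.127) or MHC II block WT IL-2 replicate 1 (-0.10, 0.172) and without both libraries high in B cell markers (-0.10, 0.15), and the Rac2 call without isotype WT IL-2 replicate 1 (-0.13, 0.104). The count of 3 ranged from 1 to 8 members over the fits with 1 library left out. It was lowest without isotype WT IL-2 replicate 1 and highest without MHC II block 3x replicate 1, 3 or 4. Those 3x libraries are not in the comparison but are in the same fit, and how they act on the calls was not tested. DESeq2, and edgeR with no filter on counts or biotype, each called 7, with Rac1, Rhoa, Nck2 and Pak2 lower as well, and with only the groups compared Cdc42 was lost (-0.15, 0.106 by edgeR). With H16R, Pak2 fell by 9.92%, with separate groups, a call that total counts in place of TMM (-0.12, edgeR adjusted p = 0.102), limma on FPKM and no filter on counts or biotype (-0.15, 0.158 by edgeR) each ended. With PBS, Rhoa fell by 10.5%, from 387, 409.8, 415 and 379 CPM to 360.3, 355, 356 and 354 CPM without overlap, a log2 difference of -0.16 ± 0.047 (SE, edgeR adjusted p = 0.0337) that was lost without isotype PBS replicate 3 (-0.14, 0.106) and with no filter on counts or biotype (-0.17, 0.17). Without the 2 libraries high in B cell markers, Cdc42 (-0.13, 0.0876) and Pak2 (-0.11, 0.0766) were also called lower with PBS, 3 members in all. With WT IL-2, H16R and 3x, every gene of the B cell, myeloid and NK marker lists (5 of 5, 6 of 6 and 3 of 3) had a higher group median with MHC II block than with isotype. With 3x the B cell sums were 45.9 to 98.3 against 23.0 to 29.0 CPM and the myeloid sums 46.0 to 63.1 against 18.5 to 24.1 CPM. Their part in the differences above was not tested.

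Whether an IL-2 molecule acted differently in the 2 arms was tested as an interaction, the effect against PBS with MHC II block minus that with isotype. For WT IL-2, 2 of 9 genes had a smaller effect with block and 0 a larger, where 19.7% of all genes were called. For H16R, 1 of 9 was smaller (19.1% called), and for 3x 2 were larger and 1 smaller (39% called). The effect on Rhoh was smaller with all 3 molecules, with log2 interactions of -0.22 ± 0.071 (SE, edgeR adjusted p = 0.0389), -0.21 ± 0.071 (SE, edgeR adjusted p = 0.0509) and -0.34 ± 0.071 (SE, edgeR adjusted p = 0.000753), 3 contrasts that share the PBS libraries of both arms. The value for 3x held in all 32 fits with 1 library left out. That for WT IL-2 reached an edgeR adjusted p of 0.1 without MHC II block WT IL-2 replicate 1, the library high in B cell and myeloid markers, and 0.108 without both libraries that stand apart. That for H16R was lost without MHC II block PBS replicate 1 (-0.19, 0.121) and with no filter on counts or biotype (-0.20, 0.227). In the opposite direction, the effect of 3x on Cdc42 was larger with MHC II block by 0.27 ± 0.07 (SE, edgeR adjusted p = 0.00498), which also held in all 32 fits with 1 library left out. That on Rac1 was larger by 0.18 ± 0.078 (SE, edgeR adjusted p = 0.0726), a call lost without any 1 of 8 libraries: isotype PBS 3, isotype WT IL-2 2, isotype 3x 2 or 3, MHC II block PBS 3, or MHC II block 3x 1, 3 or 4 (adjusted p from 0.102 to 0.227), and also with no filter on counts or biotype (0.17). The smaller effect of WT IL-2 on Nck2, -0.20 ± 0.079 (SE, edgeR adjusted p = 0.0823), was lost without any 1 of 8 libraries: isotype PBS 2, isotype WT IL-2 1 or 3b, MHC II block PBS 1, 2 or 3, or MHC II block WT IL-2 1 or 2 (0.124 to 0.195). Without both libraries high in B cell markers it was -0.18 (0.163 by edgeR), so that 0 members were called for WT IL-2. In the same fit Cdc42 was called larger with block for H16R (0.17, 0.0907), 2 members in all, and Was smaller with block for 3x (-0.14, 0.0973), against 0.14 (0.182) and -0.13 (0.11) with all libraries.

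**Figure D3:**
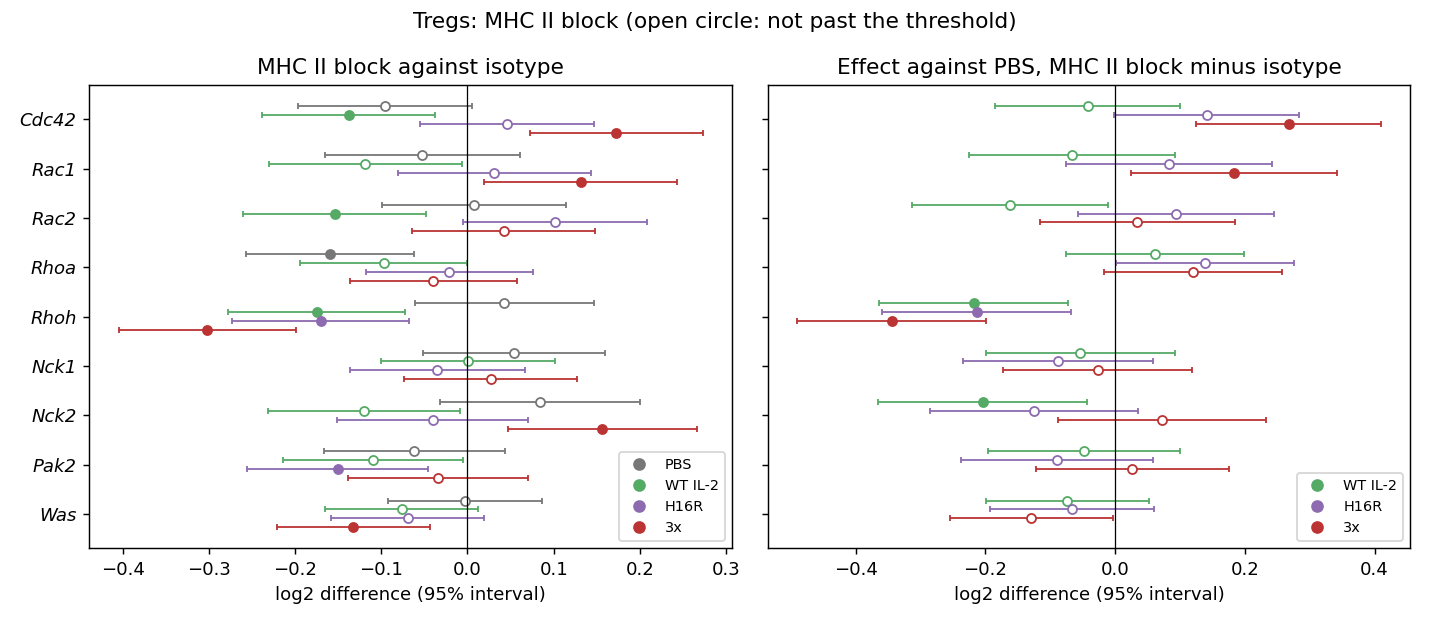
Log2 difference between MHC II block and isotype within each treatment (left) and the difference between the arms of each effect against PBS (right) for each gene, with 95% intervals; colours mark the treatment and open circles did not pass the threshold. Rhoh lies left of 0 with all 3 IL-2 molecules in both panels (to -0.30 and -0.34 with 3x), and Cdc42 with 3x lies right of 0 (0.17 and 0.27).

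Compared at the same dose, both muteins gave higher levels of 6 or more of the 9 genes than WT IL-2 in each arm, and between the muteins 1 of 9 genes was called with isotype and 5 of 9 with MHC II block. With isotype, H16R was above WT IL-2 for 7 of 9 genes (18.6% of all genes called) and 3x for 6 of 9 (34.7% called). With no filter on counts or biotype these became 3 and 5, since Cdc42, Rac1, Nck1 and Was for H16R (edgeR adjusted p from 0.109 to 0.278) and Rhoa for 3x (0.168) no longer passed, and Cdc42 and Nck1 for H16R were also lost with total counts and with limma on FPKM. Nck2 was the largest difference in both, 0.36 ± 0.054 (SE, edgeR adjusted p = 0.000167) for H16R and 0.34 ± 0.054 (SE, edgeR adjusted p = 3.85e-05) for 3x. Between 3x and H16R, 1 of 9 genes was called (11.5% of all genes), Rhoh, lower with 3x, a log2 difference of -0.16 ± 0.05 (SE, edgeR adjusted p = 0.0508), a call that was lost with no filter on counts or biotype (-0.16, 0.222). For Nck2 the log2 difference between 3x and H16R was -0.02 with a 95% interval of -0.13 to 0.09, and for Cdc42 it was 0.08 (-0.02 to 0.18). With MHC II block, H16R was above WT IL-2 for 9 of 9 genes (57.5% of all genes called) and 3x for 8 of 9 (68.7% called), with Rhoh the exception. Here 3x and H16R differed for 5 of 9 genes (25.2% called): Cdc42, Rac1, Nck2 and Pak2 were higher with 3x, by 15.4%, 16.6%, 13.4% and 10.6%, and Rhoh was lower by 18.2%. The log2 differences were 0.21 ± 0.049 (SE, edgeR adjusted p = 0.00383) for Cdc42 and -0.29 ± 0.05 (SE, edgeR adjusted p = 0.000259) for Rhoh. Leaving out 1 library ended the isotype calls of Cdc42 for H16R against WT IL-2 (without isotype WT IL-2 2 or 3b, or H16R 1 or 3, adjusted p from 0.105 to 0.236) and of Rhoh for 3x against H16R (without H16R 2 or 3, or 3x 1 or 4, 0.101 to 0.193), and the block call of Pak2 for 3x against H16R (without H16R 1, or 3x 1 or 4, 0.103 to 0.15), which was also lost with no filter on counts or biotype (0.152). Without isotype H16R replicate 3 the calls of Rac1 (0.102) and Nck1 (0.163) against WT IL-2 also ended, and without MHC II block WT IL-2 replicate 1 those of Nck1 and Pak2 for H16R (0.154 and 0.143) and of Nck1 for 3x (0.166). Without both libraries high in B cell markers, the block calls of Nck1 against WT IL-2 ended for H16R (0.09, edgeR adjusted p = 0.12) and 3x (0.08, 0.131). Markers of other cells moved in these comparisons too. With isotype, the B cell sums were 40.0 to 72.3 CPM with WT IL-2 against 25.3 to 32.1 with H16R and 23.0 to 29.0 with 3x, without overlap, and the NK sums 10.8 to 15.3 CPM against 6.43 to 10.2 and 7.98 to 14.0, separate for H16R alone. With MHC II block the NK sums were 26.2 to 41.6 CPM with WT IL-2 against 14.1 to 25.0 with H16R and 15.2 to 20.1 with 3x, without overlap, and the B cell and myeloid sums overlapped. The part of those cells was not tested.

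Tregs and Tcons of the same 16 mice were set against each other in a fit that holds the mouse as a block. Averaged over treatments, 9 of 9 genes were higher in Tregs, where 80.5% of the 12844 genes tested were called. Rhoh had the largest difference, 2.23-fold, and the other 8 were between 1.09-fold (Rhoa) and 1.37-fold (Nck2). Rhoh was at 302 to 336 CPM in the 4 isotype PBS Treg libraries and at 167 and 162 CPM in the 2 isotype PBS Tcon libraries. Within a mouse its ratio was 1.84 at the lowest, 2.15 at the median and 2.62 at the highest of the 16 mice. The log2 difference was 1.16 ± 0.028 (SE, edgeR adjusted p = 4.5e-15), against 0.46 ± 0.035 (SE, edgeR adjusted p = 4.61e-09) for Nck2, 0.40 ± 0.032 (SE, edgeR adjusted p = 8.16e-09) for Rac1 and 0.40 ± 0.029 (SE, edgeR adjusted p = 2.19e-09) for Pak2. These are averages over treatments, and for Cdc42, Rhoa and Nck1 not every mouse had the higher level in Tregs. The Cdc42 ratio of Tregs to Tcons ran from 0.809 to 1.68 and was above 1 in 10 of 16 mice, and in the 4 PBS mice it was 0.809, 0.948, 0.853 and 0.9. With 3x it was 1.24, 1.19, 1.68 and 1.44. The ratio of Rhoa was above 1 in 12 of 16 mice, and of the PBS mice 3 were at 0.98, 0.974 and 0.973 and the other was above 1. That of Nck1 was above 1 in 13 of 16, and in the PBS mice it was 0.819, 1.11, 0.961 and 0.999, so that each of the 3 genes had at least 3 of 4 PBS mice below 1. For Rhoh, Rac1, Rac2, Nck2, Pak2 and Was the ratio was above 1 in 16 of 16 mice. Every B cell, myeloid, CD8 T cell and NK marker had a higher median in Tcons than in Tregs. The B cell sums were 102 to 723 CPM in Tcons against 23.0 to 460.5 CPM in all Tregs, and the NK sums 28.7 to 132 CPM against 6.43 to 41.6 CPM. The part of those cells was not tested.

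**Figure D4:**
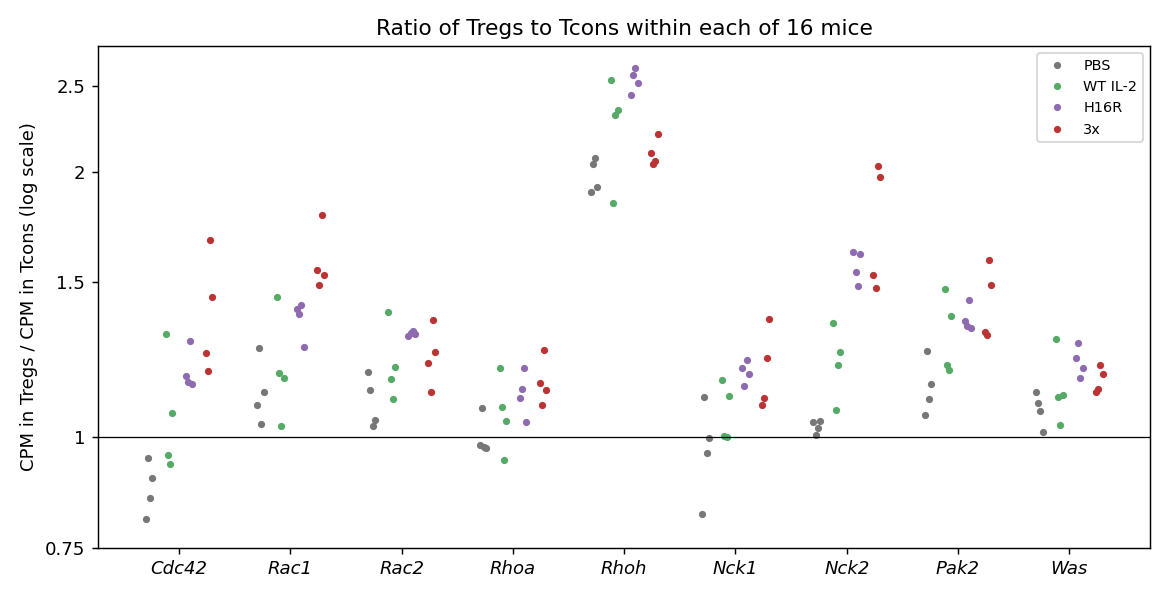
Ratio of CPM in Tregs to CPM in Tcons of the same mouse (y axis, log scale, line at 1) for each gene (x axis), 1 point per mouse, 4 mice per treatment in colour. Rhoh lies at 1.84 to 2.62, above every other gene's points except the 2 highest of Nck2 (1.97 and 2.03), and the 4 PBS mice lie below 1 for Cdc42.

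The change with each molecule was then compared between the cell types, as the log2 effect in Tregs minus that in Tcons over both antibody arms. It was larger in Tregs for 0 of 9 genes with WT IL-2 (12.2% of all genes called), for 9 of 9 with H16R (40.6% called) and for 7 of 9 with 3x (46.5% called). For WT IL-2, 4 of the 9 had an unadjusted p under 0.05, and DESeq2 called 0. The Tcon library of isotype WT IL-2 mouse 2 stood apart, with a sum of the 5 Treg markers of 1419 CPM against 332 to 712 CPM in the other 15 Tcon libraries. Without that mouse the count for WT IL-2 became 4, with Rhoh at 0.29 (edgeR adjusted p = 0.00501). Nck2 differed most, 0.62 ± 0.099 (SE, edgeR adjusted p = 0.000559) with H16R and 0.76 ± 0.099 (SE, edgeR adjusted p = 5.82e-05) with 3x, and Cdc42 by 0.66 ± 0.11 (SE, edgeR adjusted p = 0.000407) with 3x. Rhoh differed with H16R, 0.38 ± 0.079 (SE, edgeR adjusted p = 0.00288), and with 3x its difference was 0.09 (-0.07 to 0.26). Rhoa with H16R and Rac2 with 3x were lost in 7 and 4 of 16 fits with 1 mouse left out, and both, with Was for H16R, were lost with total counts in place of TMM (edgeR adjusted p = 0.286, 0.204 and 0.155). With no filter on counts or biotype those 3 and Rhoa with 3x were lost (0.108 to 0.301). Rhoa with H16R was also lost without both Treg libraries high in B cell markers (0.15, edgeR adjusted p = 0.14).

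In Tcons alone, where a treatment has 4 libraries over both arms, few members passed the threshold. WT IL-2 changed 0 of 9 (27.2% of the 12526 genes tested were called), with 0 at an unadjusted p under 0.05 and 0 by DESeq2. Without isotype WT IL-2 mouse 2, whose Tcons were high in Treg markers, Rhoh was called lower (-0.18, edgeR adjusted p = 0.0555). 3x changed 0 of 9 (9.91% called), with 1 at an unadjusted p under 0.05 and 0 by DESeq2. H16R raised 2 of 9 (31.1% called), Nck2 by 14.6% and Rac1 by 9.53%. Nck2 in Tcons was at 39.1 and 39.7 CPM with PBS and isotype, 42.7 and 42.7 CPM with PBS and block, and at 46.9 and 49.5 and 46.5 and 45.5 CPM with H16R, without overlap. Its log2 fold change was 0.20 ± 0.062 (SE, edgeR adjusted p = 0.0379), lost without isotype PBS mouse 1 (0.172) or 2 (0.167), and the Rac1 call was lost in 7 of 16 fits with 1 library left out. MHC II block lowered 1 of 9 genes in Tcons (28.9% of all genes called), again Rhoh, by 12.1%, a log2 difference of -0.19 ± 0.052 (SE, edgeR adjusted p = 0.032). This call held in all 16 fits with 1 library left out. It is an average over treatments. With PBS, Rhoh was at 167 and 162 CPM with isotype and at 165 and 171 CPM with block. With WT IL-2 it was at 158 and 185 against 127 and 149 CPM, with H16R at 179 and 176 against 153 and 157 CPM, and with 3x at 182 and 195 against 156 and 158 CPM. The block values were below the isotype values with each IL-2 molecule and overlapped them with PBS, and the difference between treatments was not tested in Tcons. The B cell marker sums in Tcons were 102 to 723 CPM, highest in the 2 isotype PBS libraries. The myeloid sums were higher with block than with isotype for each IL-2 molecule, without overlap. With WT IL-2 they were 316 to 508 against 46.8 to 66.1 CPM. With H16R they were 109 to 124 against 28.6 to 29.8 CPM, and with 3x 159 to 165 against 34.9 to 54.4 CPM. With PBS they were lower with block, 33.6 to 36.1 against 107 to 127 CPM. The 3 erythroid markers summed to 200.5 CPM in isotype WT IL-2 mouse 1 and 119.7 CPM in MHC II block WT IL-2 mouse 1. The NK sums were 75.5 to 93.7 CPM with H16R, all above the 28.7 to 61.3 CPM with PBS. The part of those cells was not tested.

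The wider pathway was described with 6 lists, 116 genes in all, of which 111 were tested in Tregs (Arhgap26 was not analysed here). With 3x and isotype, the lists nearest to actin rose most: of 20 genes for actin and its binding proteins 17 rose and 0 fell (median log2 fold change 0.51), and of 18 tested for the WAVE complex, which acts downstream of Rac, and the Arp2/3 complex, which branches actin, 15 rose and 1 fell (0.35). Of 19 GEFs 11 rose and 4 fell, of 16 GAPs and GDIs 11 rose and 3 fell, of 26 effectors and adaptors 14 rose and 6 fell, and of 12 other small GTPases 4 rose and 4 fell. Over all 6 lists 72 rose and 18 fell, while 63.6% of all tested genes were called and their median was -0.01. With total counts in place of TMM the counts were 66 and 22. The largest rises were Rhoc, a GTPase close to Rhoa, at 2.32 ± 0.15 (SE, edgeR adjusted p = 4.29e-13), Racgap1, a GAP that acts in cytokinesis, at 1.27 ± 0.11 (SE, edgeR adjusted p = 1.29e-10), and Dstn, the actin-severing protein destrin, at 0.98 ± 0.099 (SE, edgeR adjusted p = 3.1e-09). The largest falls were Fgd2, a Cdc42 GEF, at -2.18 ± 0.46 (SE, edgeR adjusted p = 0.000186), Rhob at -1.42 ± 0.13 (SE, edgeR adjusted p = 5.54e-10) and Pak1 at -0.91 ± 0.14 (SE, edgeR adjusted p = 4.25e-06). Pak1 fell where its relative Pak2 rose by 30.4%. Fgd2 and Pak1 were low in these cells, at means of 8.27 and 7.62 CPM over the 32 Treg libraries, and the B cell marker sums were lower with 3x in the same comparison, 23.0 to 29.0 CPM against 89.4 to 460.5 CPM. Without the 2 libraries high in B cell markers the log2 fold change of Fgd2 was -1.48 (edgeR adjusted p = 1.28e-05) and that of Pak1 -0.81 (1.38e-06). The part of B cells in these falls was not tested.

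Between MHC II block and isotype, more actin, WAVE and Arp2/3 genes fell than rose with WT IL-2, and more rose than fell with 3x. With H16R more actin genes rose than fell, and WAVE and Arp2/3 genes rose and fell in equal number. The difference between the molecules was not tested for the lists. With WT IL-2, of the 20 actin genes 1 rose and 12 fell and of the 18 WAVE and Arp2/3 genes 1 rose and 8 fell. With 3x, 10 rose and 1 fell of the actin genes and 10 rose and 3 fell of WAVE and Arp2/3, while 3 rose and 12 fell of the GEFs and 2 rose and 12 fell of the effectors and adaptors. With H16R, 6 rose and 2 fell of the actin genes, 4 rose and 4 fell of WAVE and Arp2/3, 2 rose and 11 fell of the GEFs and 2 rose and 10 fell of the effectors and adaptors. With total counts the H16R counts became 8 and 1, 8 and 2, 3 and 8, and 2 and 4, and without both libraries high in B cell markers the WAVE and Arp2/3 counts were 7 and 4. With total counts the 3x counts became 13 and 0, 12 and 2, 3 and 8, and 4 and 7. Over all lists 34 rose and 36 fell with 3x (42 and 23 with total counts), 21 rose and 32 fell with H16R (29 and 18), and 12 rose and 36 fell with WT IL-2 (12 and 35), beside 54.1%, 30.7% and 33.6% of all genes called. With 3x the largest rises were Gsn, the actin-severing protein gelsolin (1.26 ± 0.14 SE, edgeR adjusted p = 4.35e-08), Fgd2 (1.21 ± 0.45 SE, edgeR adjusted p = 0.0284) and Vcl, the adhesion protein vinculin (1.01 ± 0.14 SE, edgeR adjusted p = 2.42e-06), and the largest falls Vav3, a Rac GEF (-0.45 ± 0.066 SE, edgeR adjusted p = 3.52e-06), Arhgap35 (-0.45 ± 0.096 SE, edgeR adjusted p = 0.000443) and Wasl, the widely expressed relative of Was (-0.41 ± 0.082 SE, edgeR adjusted p = 0.000239). Was itself fell by 8.76% in the same comparison. With WT IL-2 the largest rises were Fgd2 (2.18), Pak1 (0.89) and Rhoq (0.89), and the largest falls Capg (-0.60), Rhoc (-0.48) and Cyfip1, a WAVE subunit (-0.45). Replicate 1 of MHC II block with WT IL-2 is in this comparison, and without it and isotype PBS replicate 1 the rises were 1.18 for Fgd2, 0.68 for Pak1 and 0.66 for Rhoq (edgeR adjusted p = 0.00052, 6.47e-05 and 0.000508). The B cell sums were 67.3 to 460.4 CPM with block against 40.0 to 72.3 CPM with isotype, and the myeloid sums 24.3 to 489 against 14.1 to 22.4 CPM. With 3x the B cell sums were 45.9 to 98.3 against 23.0 to 29.0 CPM and the myeloid sums 46.0 to 63.1 against 18.5 to 24.1 CPM. The part of those cells in the rises with either molecule was not tested. Between Tregs and Tcons, of 112 genes tested 73 were higher and 22 lower in Tregs, or 53 and 33 with total counts, where 80.5% of all genes were called, 40.7% higher and 39.8% lower. Capg, which caps actin filaments, was the most raised (1.85 ± 0.038 SE, edgeR adjusted p = 8.19e-16), followed by the GEFs Tiam1 (1.62 ± 0.068 SE, edgeR adjusted p = 2.65e-12), which acts on Rac, and Vav2 (1.43 ± 0.078 SE, edgeR adjusted p = 5.73e-11), and Fgd2, Vcl and the Rac GAP Chn2 were the most lowered, at -1.89, -1.11 and -1.10. All 5 B cell markers had a higher median in Tcons as well, and their part in these falls was not tested.

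**Figure D5:**
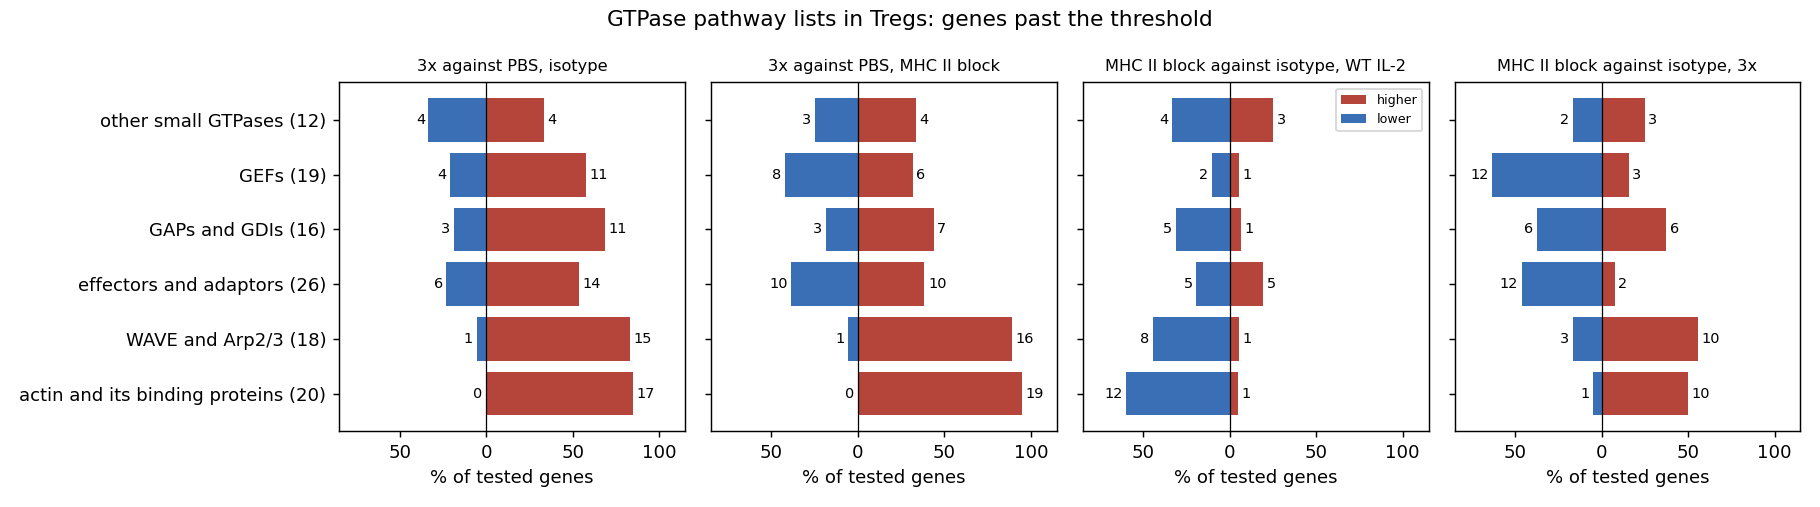
Share of the tested genes of each list (y axis, number tested in brackets) that were higher (red, right) or lower (blue, left) in 4 Treg comparisons, with the counts beside the bars. The actin list has 12 lower and 1 higher for MHC II block with WT IL-2, and 1 lower and 10 higher for MHC II block with 3x.

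Over the 32 Treg libraries, log2 CPM of Cdc42 and Rac1 went together most closely (Pearson r = 0.967), followed by Cdc42 and Nck2 (0.945) and Rac1 and Nck2 (0.913). Rhoh was least like the others, with r from 0.374 with Rac1 to 0.765 with Was. These values describe 32 libraries that share treatment groups and carry no test. Among 9524 genes with a mean above 5 CPM, those most like Cdc42 were Actr3, an Arp2/3 subunit (r = 0.987), Rap1b (0.985) and Capza1, an actin-capping subunit (0.984). Those most like Rac1 were Glipr2 (0.981), Actr3 (0.979) and Ywhab (0.977), and those most like Nck2 were Arl5a (0.972), Coro7 (0.972) and Rps6ka1 (0.971). Pak2 was nearest to Slain2 (0.978), Adam10 (0.963) and Nek7 (0.955), Rac2 to Cnn2 (0.976), Ppdpf (0.967) and Arhgdib, a GDI of small GTPases (0.967), and Nck1 to Tmem71 (0.922), Adcy7 (0.91) and Camk2g (0.908). Rhoa was nearest to Ndfip2 (0.939), Morf4l1 (0.924) and Hadh (0.913), and Was to Btf3 (0.919), Eif3h (0.919) and Ap1g2 (0.911). Rhoh was nearest to Lrrc61 (0.913), Arhgap45, a GAP of blood cells (0.903), and Pacs1 (0.892).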

How the data were processed

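RNA-seq libraries of mouse splenic Tregs (32) and Tcons (16) were analysed. The authors aligned reads with OSA in Omicsoft Array Suite to mouse B38, with a gene model their methods name as GENCODE v19, and quantified them with RSEM. The deposited expected counts per gene and the deposited FPKM values (scaled to transcript length and library size) were read as given, and counts were rounded to whole numbers. Other deposited tables hold the authors' own DESeq2 (1.30.1) comparisons of Treg groups (log2 fold changes and adjusted p-values) and were not used. Of 53345 gene names, 51519 (96.58%) were in GENCODE vM21. Protein-coding genes above 0.5 CPM in at least 4 libraries with no empty cell were tested: 12392 in Tregs (29 dropped for empty cells), 12844 in the pairs and 12526 in Tcons (7 dropped in each).

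edgeR 4.0.16 (R 4.3.3) quasi-likelihood tests with TMM scaling were fitted to 8 Treg groups, to Tregs and Tcons of the same 16 mice with the mouse as a block, and to Tcons with treatment and antibody as terms. Adjusted p-values (Benjamini-Hochberg) are over all genes tested, at a threshold of 0.1, and all tests are two-sided. Treg and Tcon libraries carry the same mouse label, and their deviations from the group means correlated at 0.158 to 0.543 (median 0.258, 16 mice). Both Tcon libraries of a group lie equally far from their mean, in opposite directions. The values of mice in the same group are therefore not independent of each other. The pairing was taken from the labels and was not tested. DESeq2 1.42.0 and limma 3.58.1 on log2(FPKM + 1) and log2(FPKM + 0.1) were alternatives, with other filters and scalings and each library left out. Levels between genes were compared in FPKM only. Total expected counts per library were 18.28 to 51.24 M (Treg) and 31.31 to 51.95 M (Tcon).

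The members and lists were chosen with earlier results of these data known. Pathway genes were named as the 3 largest called rises and falls with a mean above 5 CPM, and similar genes by Pearson r of log2 CPM. The 2 promoters, the motifs and the leave-out of 2 libraries were chosen after values were seen. Promoters are from RefSeq. Arhgap26 was not analysed here, and 1 B cell marker of the list fixed at the start is not reported here, so the B cell sums are over 5 genes.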

Additional observations from a re-analysis of the deposited data

Results flagged for a closer look

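In 72 groups of 4 Treg libraries (9 genes by 8 groups), 2 had 1 library far from the others by Dixon's ratio, the gap to the nearest library over the group's range, where chance flags about 1 in 20 groups. Rhoh in MHC II block PBS replicate 1 was at 342 CPM with a ratio of 0.875, and Was in isotype 3x replicate 4 at 202 CPM with a ratio of 0.953. 

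The effect of an IL-2 molecule against PBS differed between the antibody arms, by the interaction term (log2, MHC II block minus isotype), for Rhoh with WT IL-2 (-0.22), H16R (-0.21) and 3x (-0.34), for Nck2 with WT IL-2 (-0.20), and for Cdc42 (0.27) and Rac1 (0.18) with 3x.

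The effect also differed between Tregs and Tcons of the same mice, by the same kind of term (log2, Tregs minus Tcons). With H16R the difference was 0.46 for Cdc42, 0.29 for Rac1, 0.28 for Rac2, 0.18 for Rhoa, 0.38 for Rhoh, 0.31 for Nck1, 0.62 for Nck2, 0.28 for Pak2 and 0.20 for Was. With 3x it was 0.66 for Cdc42, 0.50 for Rac1, 0.18 for Rac2, 0.22 for Rhoa, 0.31 for Nck1, 0.76 for Nck2 and 0.33 for Pak2. With WT IL-2 no member passed the threshold by edgeR, with 4 at an unadjusted p under 0.05 and 0 by DESeq2.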

How the results depend on the processing

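No member changed direction past the threshold in any comparison under any alternative. Counts of members called moved by over 1.5 times as follows, and the cause was not tested. DESeq2 called 7 in place of 3 for MHC II block against isotype with WT IL-2, and 2 in place of 1 for Tcons. WT IL-2 against PBS with MHC II block gave 3 in place of 6 with total counts, with no filter on counts or biotype and with limma on FPKM at either pseudocount. Without a filter on counts or biotype, block against isotype gave 0 for PBS (1), 7 for WT IL-2 (3), 1 for H16R (2) and 3 for 3x (5), H16R against WT IL-2 with isotype 3 (7), 3x against H16R with isotype 0 (1), and the H16R interaction 0 (1). The WT IL-2 interaction gave 1 in place of 2 with the replicate block and with only the groups compared, and without the mouse block the Treg-minus-Tcon effect of WT IL-2 gave 2 in place of 0. Without the 2 libraries high in B cell markers, an alternative added after the data were seen, block against isotype with PBS gave 3 (1), the WT IL-2 interaction 0 (2) and the H16R interaction 2 (1).

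With 1 library left out, members called ranged from 3 to 6 for WT IL-2 with block, 0 to 1, 1 to 8, 2 to 3 and 4 to 5 for block against isotype with PBS, WT IL-2, H16R and 3x, 4 to 8 for H16R and 6 to 7 for 3x against WT IL-2 with isotype, 0 to 1 for 3x against H16R with isotype, 0 to 3, 0 to 3 and 2 to 4 for the WT IL-2, H16R and 3x interactions, 0 to 4, 8 to 9 and 6 to 8 for the Treg-minus-Tcon effects, and in Tcons 0 to 1, 0 to 2 and 0 to 0 for WT IL-2, H16R and 3x and 1 to 3 for block.

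Replicate numbers did not pair Treg libraries: same-numbered libraries of different groups correlated at a mean of 0.022, and 8 of 32 correlated best with their own number. The replicate block left 205 of 207 member values on the same side of the threshold. Total counts moved the share of higher calls over all genes by over 10 points in 11 of 27 comparisons, by -18.0 to 15.4 points, with medians of -0.078 to 0.038 (log2).

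Over all genes, counts called fell without a filter on counts or biotype from 1751 to 1109 for block against isotype with PBS, 2309 to 1312 for H16R against WT IL-2 with isotype, 1429 to 777 and 3127 to 1926 for 3x against H16R with isotype and with block, 2363 to 1447 for the H16R interaction and 1567 to 654 for the Treg-minus-Tcon effect of WT IL-2, which fell to 887 without the 2 libraries high in B cell markers. With only the groups compared, 1751 became 780 and 1429 became 2258.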
